A study of Mus musculus with 6 samples.

Results

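The vehicle cultures of this series were C57BL/6J mouse primary Sertoli cells that had received only the vehicle, and they are described here before any comparison with a treatment. They were measured on 2 of the 6 arrays, 1 array per culture sample, and were taken by the label that gives the treatment as vehicle. The other 4 arrays hold 2 samples given 20 ng bFGF, a fibroblast growth factor (the volume is not given), and 2 given 10 µM PD0325901, an inhibitor of the MEK kinases. The F12/DMEM base was supplemented for all 6 samples with epidermal growth factor (EGF, 5 ng/ml), insulin at 10 µg/ml and transferrin at 5 µg/ml, and the temperature was 34 °C. The medium was renewed on days 2 and 4, and vehicle or agent was present for 24 h from day 5. Whether EGF stayed in the medium during these 24 h is not stated. The age of the mice is not given, and nothing in the labels says whether the 2 vehicle samples came from separate animals or cultures, so the spread between them may be technical. No contrast and no test is made on these arrays, and each result is a description of 2 measurements.

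Sertoli cells are the somatic cells inside the seminiferous tubule that surround and feed the germ cells. They seal the tubule with tight junctions, secrete transport and growth factors, export lactate, engulf dying germ cells and residual bodies, and answer to follicle-stimulating hormone (FSH) and androgen. In the fetus they direct testis formation, with Sox9 among the factors needed, and secrete anti-Müllerian hormone, which makes the Müllerian ducts regress. In culture they come with some peritubular, interstitial and germ cells.

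A level here is the log2 signal of a probe minus the 75th percentile of the non-control spots of its array, so that 0 lies at that percentile. That percentile was a signal of 1524 on replicate 1 and 1613 on replicate 2. A gene was called detected where a probe named for it was flagged well above background on both vehicle arrays, and its brightest such probe stood for it. Of 16528 genes with a named probe, 12695 (76.8%) were detected, 629 were well above background on 1 array and 3204 on neither. The detected genes ranged from -6.18 to 8.28 with a median of 0.21. The 3174 genes (25.0%) at 2.18 or above, 4.52 times the 75th percentile, are called bright, and the 3174 genes (25.0%) below -2.41, 0.189 times it, are called dim. Probes bind their targets with different strength, so the order of probes is not an order of transcript abundance, and a band says how bright a probe was and no more. Pairs of values below are replicate 1 and then replicate 2.

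The error of a level between the arrays was small and grew towards the dim end. The median size of the difference between the arrays was 0.08 over all detected genes, 0.06 in the bright band, 0.07 in the middle and 0.17 in the dim band. No bright gene, 9 middle genes and 115 dim genes differed by more than 1. Pearson's r was 0.996 across genes, which are not independent replicates, and 12389 genes (97.6%) fell in the same band on both arrays. The 5 genes that differed most were all dim. They were Olfr1411 (-5.89 and -1.97), Hdac9 (-5.61, and 3.60 higher on replicate 2), Zfp609 (-1.91 and -5.45), Acnat2 (-6.24 and -2.73) and Olfr1274 (-6.01 and -2.56), and replicate 2 was the higher array for 4 of them.

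**Figure D1:**
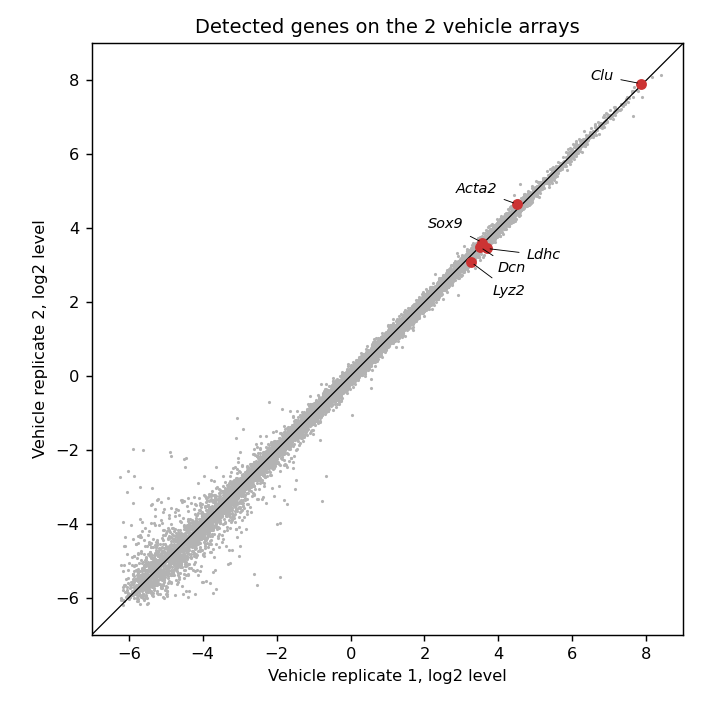
Level of each of the 12695 detected genes on vehicle replicate 1 (x axis) and replicate 2 (y axis), both as log2 signal minus the array's 75th percentile, with the line of equality. The 6 named cell type markers lie on the line in the bright band, and the scatter widens at the dim end, where 115 genes differ by more than 1.

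The choice of probe mattered far more than the choice of array. Among 4261 genes with at least 2 detected probes, the brightest and the dimmest probe of a gene lay 2.04 apart in the median (4.12-fold), with an interquartile range of 0.93 to 3.53. For 73.3% of them the gap was over 1. Among the genes described below it was largest for Col1a1, whose probes ran from -5.11 to 3.75, and then for Col3a1 (-4.54 to 3.79), Cdk1 (-5.39 to 2.64), Tyro3 (-3.32 to 4.02) and Rb1 (-4.87 to 2.25). Genes with 1 named probe were detected in 70.1% of cases and genes with several in 90.4%.

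**Figure D2:**
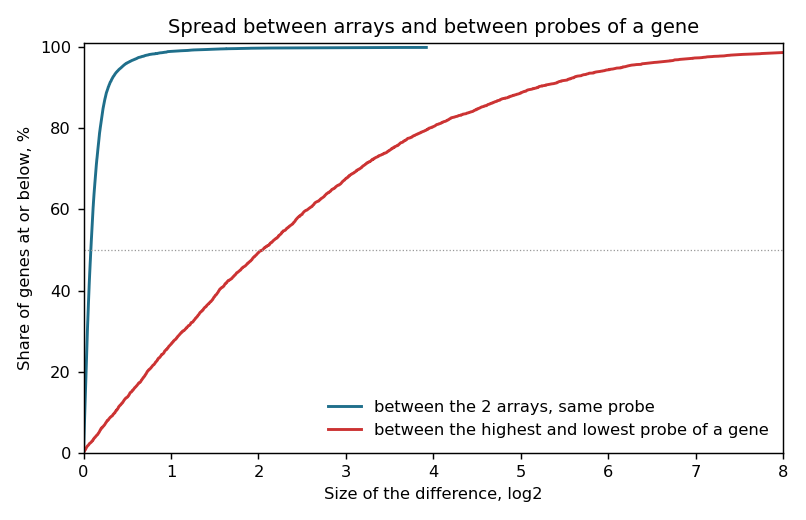
Cumulative share of genes (y axis, %) against the size of a log2 difference (x axis), for the same probe on the 2 vehicle arrays and for the highest against the lowest detected probe of a gene. The median is 0.08 between arrays and 2.04 between probes of a gene.

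The 6 marker genes fixed for the cell types were all bright by their brightest probe. Clu, clusterin, a secreted chaperone that Sertoli cells make in quantity, read 7.86 and 7.91 and ranked 4 of all 12695 detected genes. Sox9, the transcription factor that sets Sertoli fate, read 3.57 and 3.61 with its brightest probe, and its other probes averaged 2.80 and -1.88. With the mean over its probes in place of the brightest, Sox9 stood at percentile 73.6 of the detected genes, outside the bright band. Markers of other cells were bright as well. Acta2, the smooth muscle actin of peritubular myoid cells, read 4.50 and 4.65, and Dcn, decorin of fibroblasts, read 3.50 and 3.49. Ldhc, the germ cell lactate dehydrogenase, read 3.68 and 3.45. Lyz2, the lysozyme of macrophages, read 3.26 and 3.08 with 1 probe and a mean of -2.90 with the other, so its place among bright genes rests on a single probe, and with the median probe it stood at percentile 56.4. In a culture measured as a whole, a low level can mean few cells of a type, little RNA per cell or a weak probe. These cannot be told apart.

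The Sertoli genes were nearly all detected. Their lists were chosen with earlier results of these data known, so their share is no independent check of the labelled cell type. Of 50 genes in 3 Sertoli lists, 48 had a named probe, 47 of these (97.9%) were detected and 21 were bright, beside 76.8% detected and 25.0% of detected genes bright over all genes. The median of the detected Sertoli genes was 1.11 against 0.21 for all. Genes of the pathway lists below, listed for no cell type, were also detected more often than all genes, at 92.7%. The shares over all genes are the background for each list count that follows. Markers of other cells, 106 genes with a probe in 10 lists, were detected for 84 (79.2%), of which 14 were bright and 38 dim, with a median of -2.02. As a reference for signal with no known source in such a culture, 18 genes of pancreas, kidney, liver, lung, brain and other organs were read in the same way. Of these, 6 (33.3%) were detected, none was bright, and the highest was the insulin gene Ins2 at -1.37 and -1.31. Above its mean of -1.34 lay 37 of 48 Sertoli genes (77.1%), 36 of 106 other-cell genes (34.0%) and 50.9% of all genes. With the scanner's looser flag, positive and significant on both arrays, 10 of the 18 were detected. Genes with no known source in the culture were thus detected as well. How much of any level came from which cell type was not tested.

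**Figure D3:**
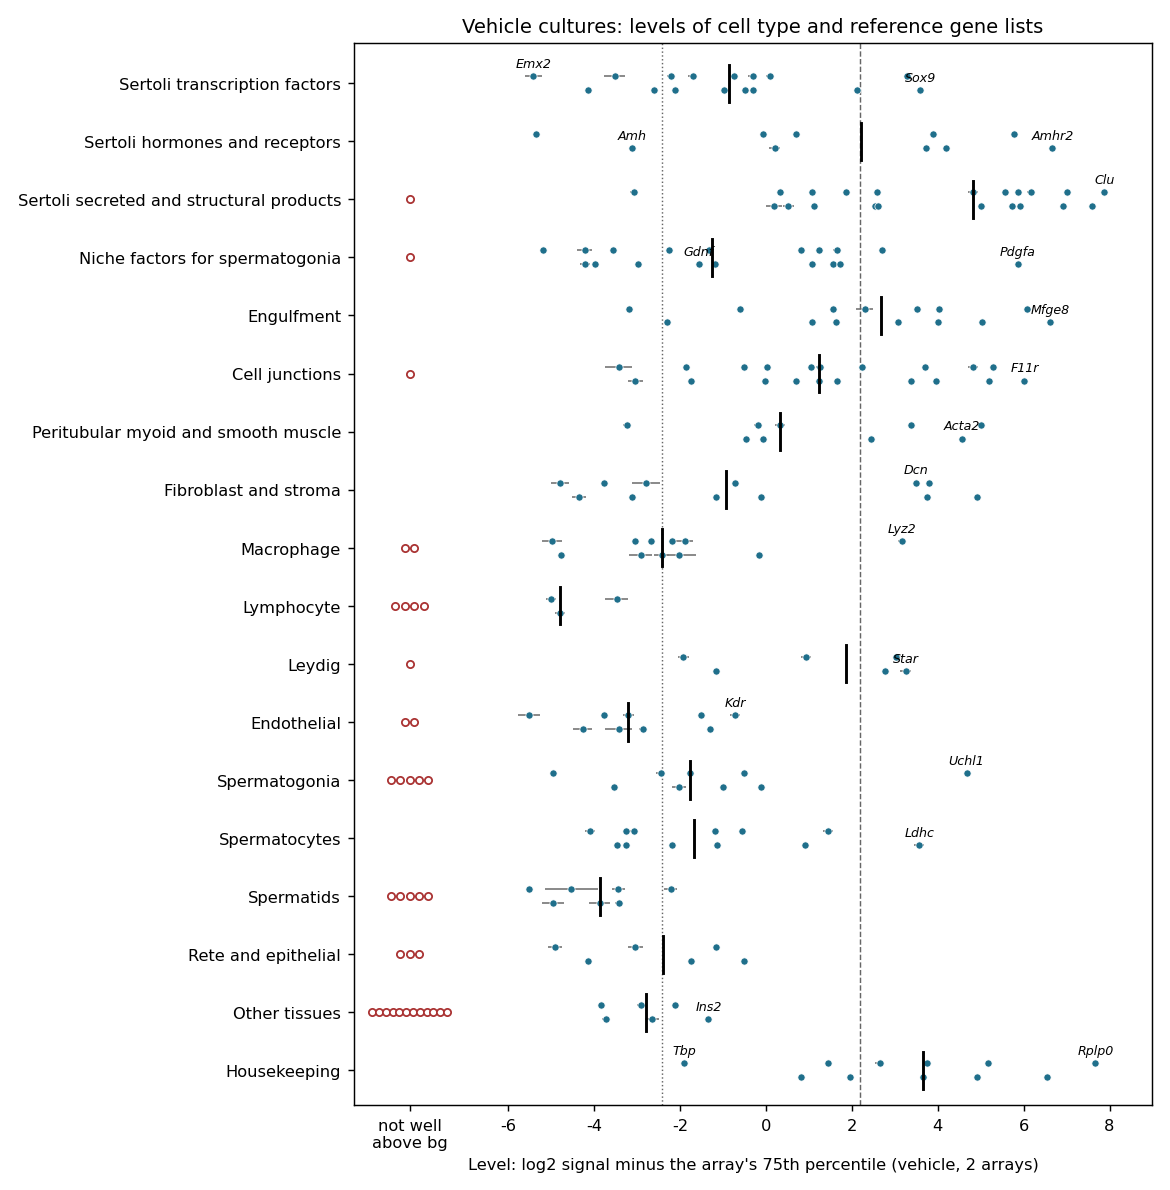
Mean vehicle level (x axis, log2 signal minus the array's 75th percentile) of the genes of each cell type or reference list, 1 point a gene, with a thin line joining the 2 arrays and a black bar at the median of the detected genes. Open circles at the left are genes not well above background on both arrays, the dotted line is the dim limit (-2.41) and the dashed line the bright limit (2.18). Sertoli products reach furthest right, with a median of 4.82, and 12 of the 18 genes of other tissues are open circles.

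Products of Sertoli cells had the highest median of the cell type lists. Of 22 secreted and structural genes with a probe, 21 were detected and 14 were bright, with a median of 4.82 and an SD between the arrays of at most 0.27 (n = 2). Ctsl, cathepsin L, a lysosomal protease secreted around the germ cells, read 7.64 and 7.54. Vim, the intermediate filament vimentin, read 6.96 and 7.05. Small or less familiar products were bright too: Aard at 6.27 and 6.07, the protease inhibitor gene Cst3 at 5.92 and 5.91, the tetraspanin Tspan17 at 5.90 and 5.85, the defensin Defb36 at 5.77 and 5.71, and Mro at 5.02 and 5.01. Gstm6, a glutathione transferase, read 5.58 and 5.55, but its near-identical relatives may share signal with it. Shbg, which encodes the androgen-binding protein, was bright at 2.60 and 2.46. Trf, transferrin, often used as a readout of Sertoli function, was in the middle band at 1.07 and 1.15, as were Eppin, Espn, Ptgds and Krt8, the last with 0.38 and 0.00. Drd4, a dopamine receptor, was dim at -2.99 and -3.17. Dapl1 was not well above background, and Cst12 and Aldh1a1 had no named probe.

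Hormone subunits and receptors were bright in part. Amhr2, the receptor for anti-Müllerian hormone, read 6.68 and 6.66, and Dhh, the hedgehog ligand through which Sertoli cells signal to Leydig and peritubular cells, read 5.76 and 5.78. The 3 genes for inhibin and activin subunits were bright by their brightest probe. Inhbb read 4.25 and 4.16 (other probe mean -1.73), Inha 3.93 and 3.87 (other probe mean 0.48) and Inhba 3.73 and 3.73. Their antagonist Fst was in the middle band at 0.08 and 0.32. Fshr, the FSH receptor, was in the middle band as well, at -0.12 and -0.03. Amh, the hormone of immature Sertoli cells, was dim at -3.05 and -3.18. The insulin receptor gene Insr was dim at -5.39 and -5.31, while the related Igf1r was in the middle band at 0.66 and 0.71, its probes running from -3.23 to 0.69.

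All 16 Sertoli transcription factors and chromatin genes were detected, but only 2 were bright, 10 were in the middle band and 4 were dim, with a median of -0.85. Besides Sox9, the bright gene was Wt1, a zinc finger factor that keeps Sertoli identity, at 3.26 and 3.32. Gata6 (2.13 and 2.12) lay just under the bright limit with its brightest probe, and its probes ran from -4.68 to 2.12. Sox8, a relative of Sox9, read 0.19 and 0.01, and Dmrt1, which holds Sertoli cells to the male fate, read -0.29 and -0.33. Gata4 read -0.52 and -0.45, and the orphan receptor gene Nr5a1 read -0.66 and -0.82. The dim genes included Lhx9 (-2.68 and -2.52), Nr0b1 (-3.28 and -3.77) and Emx2 (-5.22 and -5.61). Rhox5, a homeobox gene known as an androgen target in Sertoli cells, read -0.42 and -0.20.

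Promoters of bright genes held more CG dinucleotides in the median than promoters at large. Stretches of a few list members are shown as examples of a CG-rich and a CG-poor promoter within the bright band. RefSeq start sites on GRCm38.p6 gave a window of 250 bases before to 50 after the start for 82.3% of bright and 80.2% of middle genes. Coverage was under 80% for dim genes (77.3%), for genes above background on 1 array (78.4%) and for those on neither (79.7%), so the check is void for them and no share is given. The median window held 22 CG dinucleotides in bright genes and 21.0 in middle genes, against 13.0 over all 17492 protein-coding windows. Windows with fewer than 5 CG made up 4.06% of the bright band, 6.52% of the middle band and 29.2% of all protein-coding windows. The letters TATAAA, searched on both strands, stood in 8.11% of bright, 6.40% of middle and 13.3% of all protein-coding windows. Of the 21 bright Sertoli genes, 14 had a single window, and among these Tspan17 held the most CG and Inhba the fewest in the 250 bases before the start. The 250 bases before each start are given 5′ to 3′ on the plus strand, with every CG in capitals.
Tspan17 at chr13:54789155-54789404: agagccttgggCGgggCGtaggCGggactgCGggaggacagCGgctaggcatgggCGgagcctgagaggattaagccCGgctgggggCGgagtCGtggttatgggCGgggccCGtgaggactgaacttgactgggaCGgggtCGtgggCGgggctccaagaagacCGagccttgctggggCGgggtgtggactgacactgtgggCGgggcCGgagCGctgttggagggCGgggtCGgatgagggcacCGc
Inhba at chr13:16011601-16011850: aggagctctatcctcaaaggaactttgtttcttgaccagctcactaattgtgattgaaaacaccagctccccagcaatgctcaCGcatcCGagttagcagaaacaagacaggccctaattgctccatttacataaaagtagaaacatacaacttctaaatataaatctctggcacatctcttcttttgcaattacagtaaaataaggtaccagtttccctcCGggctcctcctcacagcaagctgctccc
These stretches hold 22 CG in Tspan17 and 3 in Inhba, and of them only that of Inhba contains TATAAA. The whole windows, on which the shares rest, hold 29 CG in Tspan17 and 7 in Inhba. Some other bright Sertoli genes held fewer than Inhba in the whole window, such as Gstm6 and Shbg with 4 each.

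**Figure D4:**
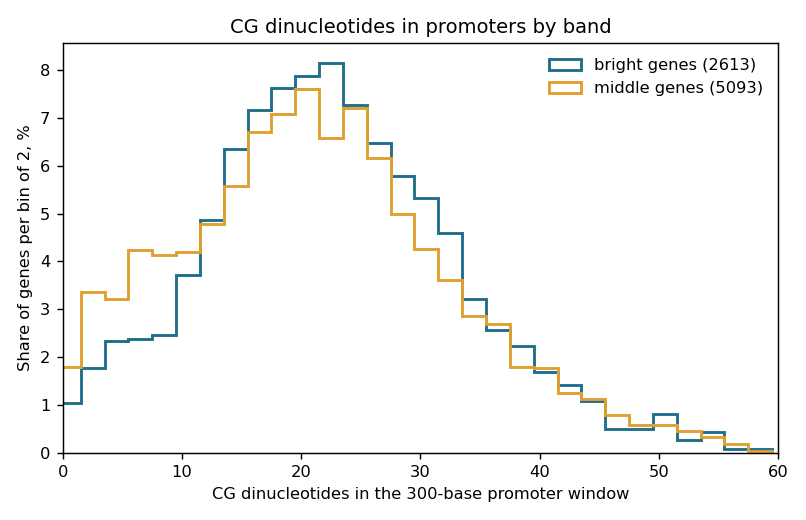
Share of genes (y axis, % per bin of 2) by the number of CG dinucleotides in the promoter window (x axis) for bright genes and middle genes with a RefSeq window. The curves largely overlap, with medians of 22 and 21.0, and the middle band has more genes at the CG-poor end.

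Genes by which Sertoli cells support spermatogonia were detected for 18 of 19 with a probe, of which 2 were bright and 6 dim. Pdgfa, a growth factor for peritubular and Leydig precursors, read 5.86 and 5.88, and Wnt6 read 2.65 and 2.76. Kitl, the ligand of Kit on differentiating spermatogonia, read 1.57 and 1.58, and Csf1 read 1.68 and 1.78. Gdnf, the factor that keeps stem spermatogonia renewing, read -1.61 and -1.52, and Cxcl12, which attracts them, read 0.81 and 0.83. The FGF ligands of the list were low, Fgf2 at -4.10 and -4.34 and Fgf8 at -4.04 and -4.40, and Fgf9 was not well above background. Hgf was the dimmest detected member at -5.16 and -5.25.

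Engulfment genes were detected for 14 of 14, with 8 bright, 1 dim and a median of 2.69. The soluble bridges between dying cells and their receptors were bright: Mfge8 at 6.62 and 6.60 and Gas6 at 6.11 and 6.05. Of the receptors for Gas6, Tyro3 was bright at 3.99 and 4.05, Axl was bright at 2.50 and 2.09, and Mertk was in the middle band at -2.34 and -2.26. The place of Tyro3 depends on its probe, as given above. Itgb5, an integrin subunit that binds Mfge8, read 5.08 and 4.99, and its partner Itgav read -3.15 and -3.24 with 1 probe. The scavenger receptor gene Scarb1 read 3.46 and 3.59.

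Cell junction genes were detected for 20 of 21, with 8 bright. Cldn11, the claudin of the Sertoli tight junction, read 4.71 and 4.93. The junctional adhesion molecule genes F11r (6.10 and 5.94), Jam2 (5.21 and 5.35) and Jam3 (4.03 and 3.91) were all bright, as was the catenin gene Ctnna1 at 5.19 and 5.20. Ocln, occludin, was in the middle band at -1.86 and -1.86, and Gja1, the main Sertoli connexin, read 0.72 and 0.68. N-cadherin (Cdh2) read 1.59 and 1.70, while E-cadherin (Cdh1) was dim at -2.86 and -3.22. Cldn1 was not well above background.

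Peritubular and stromal genes were partly bright. All 9 myoid and smooth muscle genes with a probe were detected, 4 of them bright: Tagln at 4.96 and 5.05, Acta2, Mylk at 3.37 and 3.40, and Actg2 at 2.50 and 2.39. Myh11, the smooth muscle myosin and a stricter marker of the contractile cell, read -0.47 and -0.44, and Des, desmin, was dim at -3.34 and -3.15. All 12 fibroblast genes were detected, 4 bright and 5 dim. The bright ones were Dcn and the collagen genes Col1a2 (4.94 and 4.91), Col3a1 and Col1a1. Pdgfra, a stromal receptor, read -1.11 and -1.22, and the fibroblast genes Postn, Pi16, Lum and Mfap5 lay between -3.11 and -4.80.

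Among blood and vessel cell markers, Lyz2 was the only bright gene. Of 13 macrophage genes 11 were detected, 6 of them dim. The mannose receptor gene Mrc1 read -0.19 and -0.12, Csf1r read -2.44 and -1.62, and Adgre1, which encodes the F4/80 antigen, read -2.99 and -3.13. Ptprc, the pan-leukocyte CD45 gene, was at -4.78 and -4.75, Cx3cr1 was well above background on 1 array and Itgam on neither. Of 7 lymphocyte genes 3 were detected, all dim, among them Cd3e and Cd4, and Cd3g, Cd79a, Ms4a1 and Nkg7 were not well above background. Endothelial genes were detected for 9 of 11, with 6 dim. The highest was the VEGF receptor gene Kdr at -0.61 and -0.84, and Pecam1 was the dimmest at -5.77 and -5.27.

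Steroidogenic genes were bright in part. Of 7 Leydig genes with a probe 6 were detected, and 3 were bright. Star, which carries cholesterol into mitochondria, read 3.37 and 3.13, Cyp11a1, the side-chain cleavage enzyme, read 2.72 and 2.85, and Hsd3b1 read 2.98 and 3.08. Cyp17a1, needed for androgen, read -1.80 and -2.04, and Lhcgr, the receptor for luteinizing hormone, was not well above background. Insl3 had no named probe. The nearly identical Hsd3b genes may share signal.

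Germ cell genes were mostly in the middle band, dim or not detected. Together 28 of 38 with a probe (73.7%) were detected, near the 76.8% of all genes. Of the detected germ cell genes 2 (7.14%) were bright, beside 25.0% over all genes, and 14 were dim. Their median was -2.33 against 0.21 for all detected genes. Of 14 spermatogonial genes 9 were detected. The bright one was Uchl1, a ubiquitin hydrolase also abundant in neurons, at 4.68 and 4.65. The germ cell RNA-binding genes Ddx4 (-0.46 and -0.58) and Dazl (-0.91 and -1.08) were in the middle band. The receptor gene Kit was dim at -3.52 and -3.55, Gfra1, the Gdnf coreceptor, was well above background on 1 array, and Ret, Pou5f1, Nanos2 and Lin28a were not. All 12 spermatocyte genes were detected, and 6 of them lay above Ins2, the highest gene of the other tissues (-1.34). That is near the share over all genes, of which 50.9% lay above Ins2. Besides Ldhc, Tex101 read 1.57 and 1.32 and Mael, of the piRNA pathway, 0.98 and 0.86. The synaptonemal complex genes Sycp3 (-1.15 and -1.14) and Sycp1 (-2.12 and -2.26) were in the middle band, and Spo11, which makes meiotic breaks, was dim at -4.22 and -3.99. Of 12 spermatid genes 7 were detected, 6 of them dim, none bright and none above Ins2. The protamine gene Prm1 read -2.37 and -2.07, and Acrv1, Odf1, Akap4, Spata3 and Catsper1 were not well above background. Epithelial genes of the rete and ducts were detected for 6 of 9, Cldn3 highest at -0.48 and -0.55, while Krt7, Pax8 and Muc1 were not well above background.

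Among the pathways, 215 of 232 genes with a probe (92.7%) were detected, 71 were bright and 41 dim, with a median of 0.90. For comparison, 76.8% of all genes were detected, 25.0% of the detected genes were bright and their median was 0.21. Genes with several named probes were detected more often than genes with 1 (90.4% against 70.1%). The part of probe number or of the choice of genes in the pathway counts was not tested. The lists for cholesterol synthesis and for glycolysis had the highest medians.

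**Figure D5:**
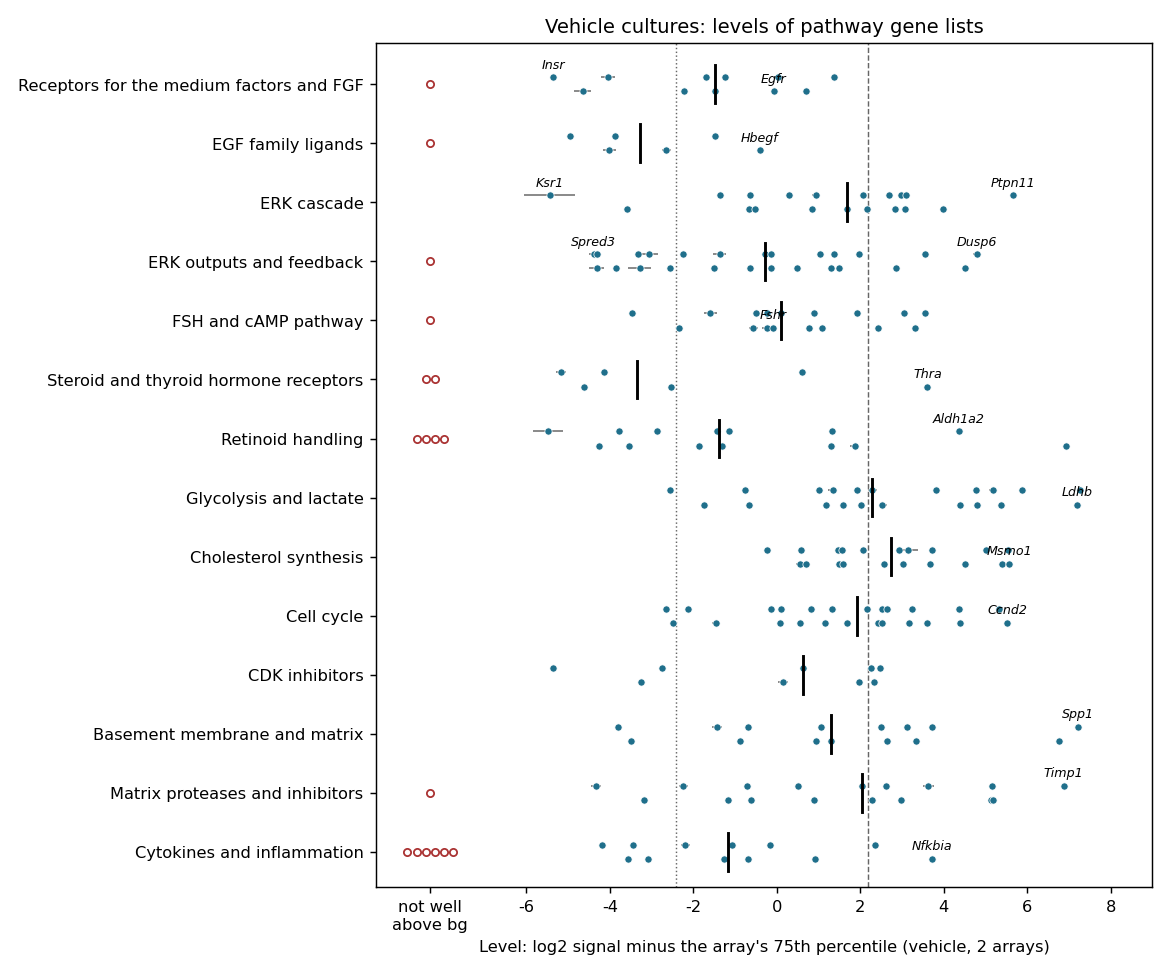
Mean vehicle level (x axis, log2 signal minus the array's 75th percentile) of the genes of each pathway list, drawn as for the cell type lists: points are genes, thin lines join the 2 arrays, black bars are medians of detected genes, open circles are genes not well above background on both arrays. Cholesterol synthesis and glycolysis lie furthest right, with medians of 2.74 and 2.29, and EGF family ligands and hormone receptors furthest left, with -3.26 and -3.34.

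Of 12 genes for receptors of EGF, insulin, transferrin and FGF and for the insulin receptor substrate, 8 were in the middle band, 3 were dim and none was bright. Egfr, which binds the EGF supplied, read -0.09 and -0.05, although its 4 probes ran from -4.89 to -0.07, and its partner Erbb2 read 0.01 and 0.07. Erbb3 was not well above background with any of 4 probes. The transferrin receptor gene Tfrc read -1.68 and -1.70. Of the FGF receptors, which bind the bFGF given to other cultures, Fgfr1 read -1.16 and -1.30, Fgfr3 -1.46 and -1.49 and Fgfr4 -2.26 and -2.19, and Fgfr2 was dim at -4.44 and -4.86. Own ligands of the EGF family were detected for 6 of 7, with 4 dim. Hbegf was highest at -0.40 and -0.41, and Tgfa was lowest at -4.99 and -4.94.

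The kinase cascade from Ras to ERK was detected throughout, 19 of 19, with 7 bright and a median of 1.69. Ptpn11, the phosphatase SHP2 that links receptors to Ras, read 5.72 and 5.59, and the adaptor gene Grb2 read 3.12 and 3.09. Braf was dim at -3.67 and -3.52. The targets of PD0325901, Map2k1 and Map2k2, read 1.67 and 1.72 and 2.99 and 2.95, and the ERK gene Mapk3 read 3.06 and 3.11. The scaffold gene Ksr1 was dim and poorly measured, at -6.05 and -4.83.

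ERK outputs and feedback genes ranged from -4.39 to 4.79. Of 26, 25 were detected, 4 bright and 8 dim, with a median of -0.28. Dusp6, an ERK phosphatase, read 4.71 and 4.86, and Junb, an AP-1 subunit, read 4.49 and 4.52. Ier3 read 3.53 and 3.55. The early genes Egr1 (1.46 and 1.51) and Fos (-0.67 and -0.59) were in the middle band, with Myc at 1.95 and 2.00. Among the Sprouty and Spred inhibitors, Spry1 was in the middle band at -0.18 and -0.10, and Spry2 (-2.58 and -2.56), Spry4 (-3.85 and -3.87), Spred1 (-3.36 and -3.29), Spred2 (-4.21 and -4.39) and Spred3 (-4.49 and -4.28) were dim. Egr3 was well above background on 1 array.

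FSH acts through cAMP, and 17 of 18 genes of that path were detected, 4 of them bright. Gnas, the stimulatory G protein, read 3.53 and 3.54 with the only detected probe of its 3. The protein kinase A subunit gene Prkaca read 3.13 and 2.98. Nr4a1, an early target of cAMP, read 3.30 and 3.32. Pde4d, a cAMP phosphodiesterase, was not well above background. Nuclear hormone receptors were detected for 6 of 8, and Thra alone, the thyroid hormone receptor of immature Sertoli cells, was bright at 3.59 and 3.64. Nr3c1, the glucocorticoid receptor, was dim at -2.57 and -2.50, Esr1 was dim at -4.65 and -4.61, and Esr2 and Pgr were not well above background.

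Among retinoid genes, a synthesis enzyme was bright and the receptors for retinoic acid were dim. Of 18 with a probe 14 were detected and 2 were bright, among them Aldh1a2, a retinoic acid synthesizing enzyme (4.34 and 4.38). Cyp26b1, which breaks retinoic acid down, read -1.31 and -1.33. The retinoic acid receptors Rarb (-3.52 and -3.57), Rara (-3.71 and -3.83) and Rarg (-5.83 and -5.11) were dim. Their partners Rxra (1.27 and 1.32) and Rxrb (1.30 and 1.37) were in the middle band by their brightest probe. The probes of Rxra ran from -3.62 to 1.29 and those of Rxrb from -0.68 to 1.33. Rara and Rarb had 1 named probe each, so the contrast between these receptors and Rxra depends on the choice of probe. Crabp2, Lrat and Cyp26a1 were not well above background.

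Energy and lipid genes were often bright. Of 21 glycolysis and lactate genes all were detected and 11 were bright. Aldoa read 7.31 and 7.22, the lactate dehydrogenase genes Ldhb and Ldha read 7.17 and 7.21 and 5.39 and 5.33, and Hk2 read 5.08 and 5.26. Slc16a1 and Slc16a3, which move lactate across the membrane, were bright at 2.63 and 2.44 and 2.39 and 2.19. Slc2a1, a glucose transporter, was in the middle band at 1.97 and 1.88, and Slc2a4 was dim at -2.57 and -2.56. All 20 cholesterol synthesis genes were detected, 11 bright and none dim. Msmo1 read 5.48 and 5.66 and Hmgcs1 5.42 and 5.36. Insig1, which restrains the pathway, was lowest at -0.25 and -0.20.

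Genes of dividing cells were detected throughout, 24 of 24 with 11 bright and a median of 1.92. Ccnd2, a D cyclin prominent in gonadal cells, read 5.52 and 5.52 and its 3 probes lay between 5.11 and 5.52. The replication gene Mcm6 read 5.38 and 5.29, Pcna 4.35 and 4.40 and the mitotic cyclin Ccnb2 4.38 and 4.33. Which cells carried these transcripts was not tested. Inhibitors of the cycle were detected for 9 of 9. Cdkn1a (2.48 and 2.47) and Cdkn2b (2.29 and 2.34) were bright, and Cdkn1b, the inhibitor that accumulates as Sertoli cells mature, was dim at -2.73 and -2.74, as was Cdkn2a at -5.41 and -5.29.

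Matrix genes were detected for 15 of 15, with 7 bright. Spp1, osteopontin, read 7.17 and 7.24, and Sparc, a collagen-binding matrix protein, read 6.73 and 6.80. Basement membrane chains were bright in Col4a2 (3.74 and 3.73), Col4a1 (3.08 and 3.17) and Lamc1 (3.35 and 3.32), and Lama2 was dim at -3.86 and -3.73. Protease inhibitors Timp1 (6.89 and 6.85), Timp2 (5.21 and 5.13) and Timp3 (5.09 and 5.21) were bright together with the membrane protease Mmp14 (5.11 and 5.15). Mmp13 was dim at -4.22 and -4.45, and Mmp9 was not well above background. Inflammatory genes were detected for 12 of 18. Nfkbia, the feedback inhibitor of NF-kappaB, read 3.66 and 3.77 and the chemokine gene Ccl2 2.32 and 2.40, while Il6 was dim at -3.50 and -3.39 and Il1b, Tnf, Cxcl2, Cxcl5 and Nos2 were not well above background.

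Over all genes, the brightest probe belonged to Lars2, a mitochondrial leucyl-tRNA synthetase, at 8.41 and 8.15. The replicate 1 value lay above the linear range that the spike-in controls gave for that array, which ended at 8.30. Among the 15 brightest genes were the glutathione transferases Gstm1 (8.15 and 8.09) and Gstm2 (7.63 and 7.69), Clu, Ctsl, the progranulin gene Grn (7.90 and 7.56) and Lrrc58 (7.63 and 7.68). The other brightest genes encode ribosomal proteins, namely Rps18, Rplp1, Rps14, Rpl7a, Rplp0, Rps23, Rps2 and Rps16, with means from 7.51 to 7.90. Genes with a ribosomal protein symbol (Rpl, Rps and Rplp) made up 31 of the 100 brightest. Housekeeping genes were detected for 11 of 11, among which Actb (0.85 and 0.76) and Tbp (-1.85 and -1.98) were in the middle band.

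Detection also depends on the background of an array. The spread of the negative controls was 15.9 and 15 signal units on the vehicle arrays, 7.50 and 8.31 on the bFGF arrays and 11.1 and 12.7 on the PD0325901 arrays. Of the 3833 genes not detected in vehicle, 1510 were detected in both bFGF samples, 271 in both PD0325901 samples and 235 in all 4, while 2287 were detected in no group. The part of the background in these counts was not tested, so a gene named as not well above background in vehicle is below this limit of measurement and is not thereby unexpressed.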

How the data were processed

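RNA of each sample was labelled with Cy3 (0.4 µg) and hybridised to a 1-colour Agilent array, per the labels. The deposited scanner files hold intensity values made by the authors with Feature Extraction (9.5 per the submitters' processing notes, 9.5.3.1 per the file headers). The background-corrected processed signal was used as deposited, with 43379 non-control spots an array. The log2 values of the deposited series matrix are centred on each probe's median over the arrays (100.0% of probes), so they hold no levels and served only for the difference between arrays, where 100.0% of 40846 probes matched the scanner values within 0.001 after a shift of -0.0043.

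From there, log2 signals minus each array's 75th percentile were averaged over spots of a probe. Of 41141 probes, 23359 (56.8%) were named through RefSeq accessions (GRCm38.p6 gene table), and each gene took its brightest probe that was well above background on both vehicle arrays. On the negative controls, 4 and 3 of 153 spots were well above background. No spot had identical signals on the 2 arrays, and none was saturated. Python 3.11.15, pandas 2.3.3, R 4.3.3 and limma 3.58.1 (for quantile and normexp alternatives, offset 50) were used, and the steps were tested on simulated data. With 2 arrays their number limits the precision, and no p-value was computed.

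Genes and lists were chosen with earlier results of these data known. Named genes are the 15 brightest, the 5 that differ most between the arrays, the 5 in lists whose probes differ most, and list members, mainly the brightest, the dimmest detected and those not well above background. Some other members are named for their known role, chosen after their values were seen. Of 479 listed genes, 457 had a named probe. Results for some listed genes are not reported here.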

Additional observations from a re-analysis of the deposited data

Results flagged for a closer look

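Probes without a gene name carried signal that the lists do not use. Of 17782 such probes, 8350 (47.0%) were well above background on both vehicle arrays, beside 77.0% of named probes and 4 and 3 of 153 negative control spots (2.61% and 1.96%), and 720 lay in the bright range. The brightest was A_52_P527944 with 8.22 and 8.19, then A_52_P57526 with 8.05 and 7.95 and A_51_P334570 with 7.27 and 7.22. Their targets are not identified here.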

How the results depend on the processing

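No paired analysis was possible because only 1 group is described. Detected genes were 13324 if 1 array sufficed, 14343 with Agilent's looser flag (positive and significant), and 12993 to 13036 with 1 replicate left out, against 12695. Sertoli genes were 47 or 48 of 48 throughout, other-cell genes 84 to 99 of 106 and pathway genes 215 to 227 of 232. The genes of other tissues numbered 10 of 18 with the looser flag, against 6. The bright list genes numbered 124 to 131 under all settings, against 129. Of the 3174 bright genes, 3070 stayed bright under normexp on the median signal (an alternative added after seeing the data, in place of the mean signal), 2662 with the median probe and 2625 with the mean over all named probes, where list medians moved by -8.43 to 8.19 percentile points (-9.06 to 7.46 with the median probe). Lyz2 stood at percentile 85.3 of the detected genes, and at 56.4 with the median probe. The median difference between arrays was 0.084, and 0.083 after quantile normalization, 0.083 after normexp and 0.084 in the series matrix. Levels from the series matrix were not run, since it is centred.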

Other observations

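Whole gene families, picked by symbol after the data were seen, stood in different bands. Over all genes 76.8% were detected, and 25.0% of the detected genes were bright. All 7 Gstm genes were detected, 6 bright with a median of 5.56, and all 4 Gsta genes were bright with a median of 4.33, where copies may share signal. Of 82 ribosomal protein genes 81 were detected, 77 of them bright. By contrast 14 of 37 Hox genes were detected, none bright, and 15 of 35 keratin genes, of which Krt18 alone was bright. Fgf ligands were detected for 8 of 21, of which Fgf18 alone was bright, at 2.82 and 2.92. Wnt ligands were detected for 12 of 19, of which Wnt6 alone was bright, at 2.65 and 2.76.

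The genes that mark the ovarian somatic path were read beside the Sertoli factors. Foxl2 was well above background on 1 array, Rspo1 read -1.75 and -2.42, and Wnt4 read 2.06 and 1.93. The Y-linked gene Eif2s3y was bright at 2.35 and 2.28, Ddx3y read -0.17 and 0.03, Kdm5d -2.21 and -2.32, and Uty was dim at -4.09 and -4.17. These 4 genes share a chromosome, and their probes covered a range of more than the whole middle band.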
